A study of Homo sapiens with 4 samples.

Results

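The 10 genes studied here, of the annexin and S100 families, which encode calcium-binding proteins, were measured in the human line NTERA2, embryonal carcinoma cells that express genes of the pluripotent state. The members were ANXA1, ANXA2, ANXA3, ANXA5 and ANXA6 of the annexins and S100A4, S100A6, S100A10, S100A11 and S100A13 of the S100 genes, that is 10 of the 26364 genes listed, taken by symbol. Messenger RNA was sequenced in 4 libraries of 1 cell line. The genotype label reads BEND3 LacZ for 2 libraries, called LacZ 1 and LacZ 3 after their labels, and BEND3 sh60 for the other two, called sh60 1 and sh60 2. The labels do not spell out LacZ or sh60. LacZ was taken for the control, and sh60, the only hairpin named, for one that targets BEND3. By the series title, the study concerns the repression of differentiation genes by BEND3, a BEN-domain protein that binds chromatin. The labels place NTERA2 among lung carcinoma lines. All 4 libraries came from clone CRL-1973, grown in high-glucose medium with serum, and how the hairpin was delivered is not given in the sources used here. The labels do not say whether replicates were separate cultures, so p-values measure only the spread between these libraries, which may be technical.

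Annexins bind membranes that expose acidic phospholipids once calcium rises, and they organise membrane repair, vesicle traffic and the cortical cytoskeleton. S100 proteins are small EF-hand dimers that change shape on binding calcium and then dock onto partners, among them annexins. The best known pairs are ANXA2 with S100A10, which form a heterotetramer at the plasma membrane, and ANXA1 with S100A11. S100A10 has lost the ability to bind calcium and stays in the active shape. In cells of mesenchymal or epithelial type these genes are usually abundant, and several of them lie together in the S100 cluster of chromosome 1.

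Library totals ran from 30338285 to 44788461 counts. Levels are given as CPM, counts scaled to a common library size after TMM, edgeR's scaling between libraries. At these depths 1 read made 0.0221 to 0.0333 CPM. BEND3, the labelled target, stood at 68.8 CPM (LacZ 1), 79.3 (LacZ 3), 55.7 (sh60 1) and 52.0 (sh60 2) (log2 fold change -0.46, edgeR adjusted p = 0.00168). Without LacZ 3 that difference no longer passed (-0.36, edgeR adjusted p = 0.153), nor did it against a minimum fold of 1.2 (glmTreat adjusted p = 0.0534). The 10 embryonal carcinoma markers were all detected, with a summed level of 4821 to 5075 CPM in LacZ and 4496 to 4698 CPM in sh60. Of these 10, DNMT3B, TDGF1, SALL4 and NANOG fell, SOX2 rose and 5 did not pass. DNMT3B, a de novo DNA methyltransferase, fell from 918 to 559 CPM (log2 fold change -0.72, edgeR adjusted p = 2.47e-06). The log2 fold changes of TDGF1 (-0.49), SALL4 (-0.31), NANOG (-0.25) and SOX2 (0.31) were smaller. TDGF1 was not called without LacZ 3 (edgeR adjusted p = 0.0571), and SALL4, NANOG and SOX2 were called neither without LacZ 1 nor without LacZ 3 (0.181 to 0.420). Without sh60 1, L1TD1 was called lower (-0.41, edgeR adjusted p = 7.26e-06), and without sh60 2, LIN28A was called higher (0.15, 0.0251). The part of these markers in the results below was not tested. Of 12 blood cell markers 10 stayed at or under 1 CPM in every library, and PTPRC and HBB had 0 counts in all of them.

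The members differ in the DNA just upstream of their start sites. All 10 matched RefSeq promoter windows (build GRCh38.p14, 250 bases before to 50 after a start site, 13 windows in all because ANXA6 and S100A13 have several). The 250 upstream bases of 5 members are shown, chosen to set the gene with the largest rise (ANXA1) and the weakly expressed S100A4 beside the partners ANXA2 and S100A10 and beside S100A6, which was almost silent. They lie at chr9:73151615-73151864 on the plus strand and, on the minus strand, at chr1:153545807-153546056, chr15:60397987-60398236, chr1:151993860-151994109 and chr1:153535992-153536241. Capitals mark TATAAA (the TATA box), TGANTCA (the AP-1 site) and CCCACGC, a sequence that the BEND3 protein has been reported to bind, each on either strand.
ANXA1: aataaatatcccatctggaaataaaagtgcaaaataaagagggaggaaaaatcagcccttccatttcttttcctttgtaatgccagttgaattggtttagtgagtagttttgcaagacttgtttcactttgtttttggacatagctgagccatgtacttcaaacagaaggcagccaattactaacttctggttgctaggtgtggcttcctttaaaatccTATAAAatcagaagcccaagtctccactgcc
S100A4: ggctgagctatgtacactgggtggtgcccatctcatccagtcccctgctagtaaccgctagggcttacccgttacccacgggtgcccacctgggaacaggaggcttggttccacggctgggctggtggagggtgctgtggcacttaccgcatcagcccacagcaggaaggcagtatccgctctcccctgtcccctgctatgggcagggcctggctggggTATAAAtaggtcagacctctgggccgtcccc
ANXA2: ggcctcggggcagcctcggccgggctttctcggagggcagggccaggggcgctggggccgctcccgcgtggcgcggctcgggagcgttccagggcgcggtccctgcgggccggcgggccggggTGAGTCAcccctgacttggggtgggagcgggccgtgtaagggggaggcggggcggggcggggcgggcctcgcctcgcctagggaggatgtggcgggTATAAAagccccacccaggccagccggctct
S100A10: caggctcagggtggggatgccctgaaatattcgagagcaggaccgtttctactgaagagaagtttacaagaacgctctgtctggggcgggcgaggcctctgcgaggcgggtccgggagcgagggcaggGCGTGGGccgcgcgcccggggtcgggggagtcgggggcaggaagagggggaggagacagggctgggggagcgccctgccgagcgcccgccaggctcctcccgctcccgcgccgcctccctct
S100A6: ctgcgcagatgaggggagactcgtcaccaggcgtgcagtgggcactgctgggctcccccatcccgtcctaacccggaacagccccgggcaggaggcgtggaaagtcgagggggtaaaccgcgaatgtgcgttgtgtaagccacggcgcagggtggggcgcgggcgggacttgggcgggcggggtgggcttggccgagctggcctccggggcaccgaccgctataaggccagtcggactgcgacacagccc

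The ANXA1 window of 300 bases held 0 CpG dinucleotides and 37.7% G and C, whereas the median over 35116 RefSeq windows was 14 CpG and 58.7% G and C. S100A4 held 8 CpG. The windows of ANXA2 and S100A10 held 32 each, that of S100A6 held 31 and that of ANXA5 held 36. TATAAA was found in 4 of the 10 members, against 11.5% of all windows. In ANXA1, ANXA2 and S100A4 its first base lay at position -31 from the start site, and in 1 of the 3 windows of S100A13 at -29. CCCACGC or its reverse complement GCGTGGG was in 3 members, S100A10 (-122), S100A11 (-9) and ANXA5 (-140), against 6.98% of all windows. TGANTCA was in ANXA2 alone (-127; 7.71% of all windows), and GGAATG, the core of the TEAD site, in 0 members (14.03% of all windows). GGGCGG, the SP1 box, was in 7 members, against 44.95% of all windows. A member was counted when any of its windows matched, and ANXA6 and S100A13 have several windows. Counts of members and shares of windows are therefore unlike measures, and no excess is read from them. The motifs searched did not overlap each other, apart from neighbouring GGGCGG boxes in ANXA2 and S100A6. A match describes letters only. Members with the TATA box were found among the risers and, in S100A13, among the genes that did not pass.

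Most of these genes stood higher in the sh60 libraries. Of 9 members that passed the count filter, 7 rose, 0 fell and 2, ANXA6 and S100A13, did not pass edgeR's quasi-likelihood test at an adjusted p of 0.05. S100A6 was too low to pass the filter. Among all 16040 tested genes 28.8% were called in either direction, 15.8% higher and 13% lower. The members were chosen with earlier results of these data known, so their count is a description and not independent evidence of a direction. A rise of 1 or more on the log2 scale was called for 4 members, ANXA1, ANXA3, S100A4 and S100A10, and for 3.58% of all tested genes. The median log2 fold change of the 9 tested members was 0.77, and that of all tested genes -0.0042. In 7 of the 9 both sh60 libraries lay above both LacZ libraries, as they did for 32.1% of all tested genes. The summed level of all 10 members was 1528 CPM (LacZ 1), 1343 (LacZ 3), 2243 (sh60 1) and 2410 (sh60 2). In bulk RNA a larger share of cells with these messages and more message per cell cannot be told apart. Without LacZ 3 the number of members called higher was 6, and without any other library it was 7.

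**Figure D1:**
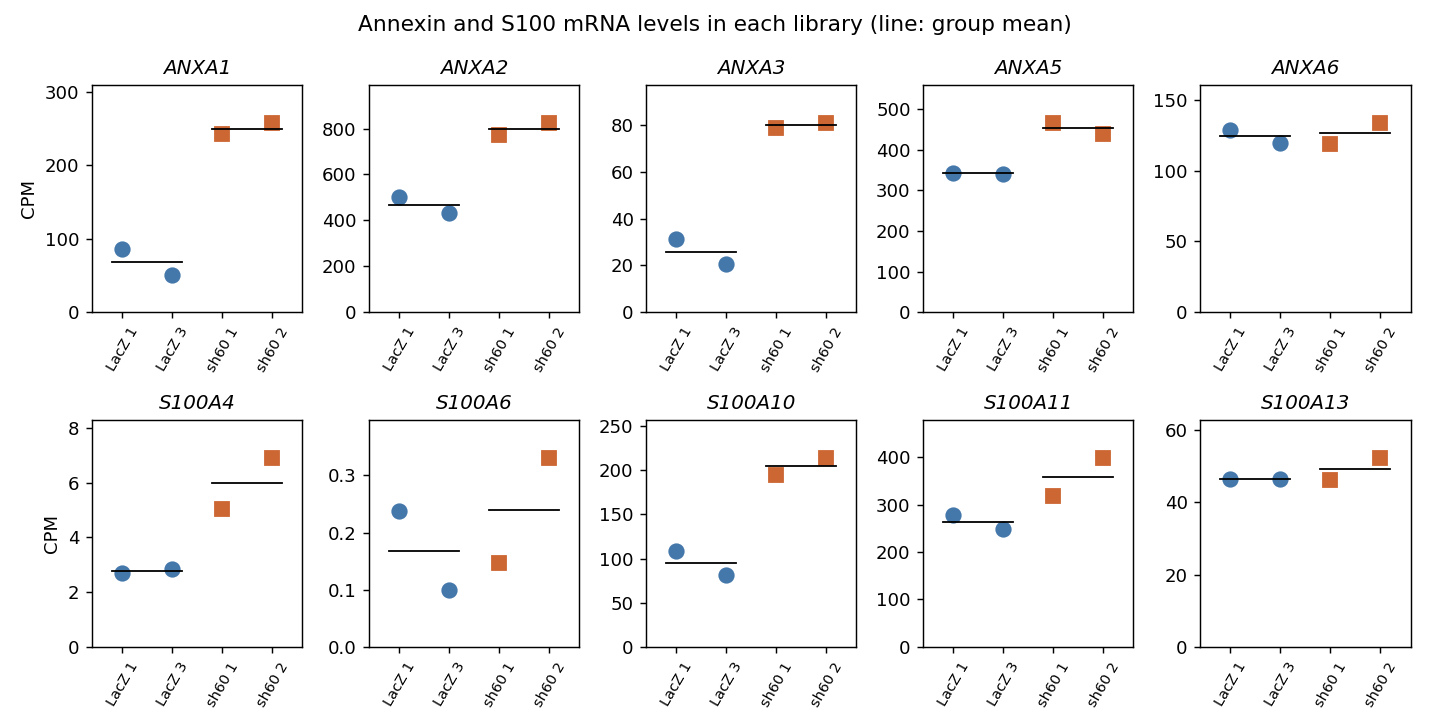
Level in CPM (vertical axis, from 0, on its own scale per gene) of each member in the 4 libraries, LacZ as circles and sh60 as squares, with a line at each group mean (n = 2). ANXA1, ANXA2, ANXA3, ANXA5, S100A4, S100A10 and S100A11 have both squares above both circles, and ANXA6, S100A6 and S100A13 overlap.

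Among the annexins ANXA1 moved most. ANXA1 (chromosome 9, 75766647 to 75785310, hg19) encodes a glucocorticoid-induced protein that limits inflammation through formyl peptide receptors. It measured 86.0 CPM (LacZ 1), 49.9 (LacZ 3), 242 (sh60 1) and 258 (sh60 2). Both sh60 libraries were well above both LacZ libraries, and the LacZ libraries themselves differed 1.72-fold. The group means were 67.9 ± 25.6 CPM for LacZ and 250 ± 11.1 CPM for sh60 (SD, n = 2 each), 3.66 times as much (log2 ratio 1.87 with an SE of 0.16; edgeR, adjusted p = 1.26e-07). Of the 16040 tested genes it had the 113th highest log2 fold change. The value was 2.33 without LacZ 1 and 1.54 without LacZ 3, and it passed in each case.

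ANXA3 (chromosome 4, 79472742 to 79531605, hg19), an annexin linked with cell migration, rose nearly as much. Its level was 31.2 CPM (LacZ 1), 20.5 (LacZ 3), 78.6 (sh60 1) and 80.9 (sh60 2). The sh60 libraries were close together, while LacZ 1 was again the higher of its pair, by 1.52-fold. The rise was 3.06-fold (log2 ratio 1.62 with an SE of 0.14; edgeR, adjusted p = 1.45e-07). The 95% confidence intervals of the fold of ANXA1 (2.92 to 4.6) and of ANXA3 (2.51 to 3.75) overlapped, and the difference between these genes was not tested.

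ANXA2 (chromosome 15, 60639350 to 60690185, hg19), the plasma membrane annexin that holds S100A10, was the member with the most counts. It measured 502 CPM (LacZ 1), 433 (LacZ 3), 773 (sh60 1) and 825 (sh60 2), with no overlap between groups. The means were 468 ± 48.8 and 799 ± 37.1 CPM (SD, n = 2 each), 1.71 times as much (log2 ratio 0.77 with an SE of 0.085; edgeR, adjusted p = 2.50e-06). Its fold change lay between 0.67 and 0.89 on the log2 scale over all 13 alternatives and was called in each. ANXA2 has processed pseudogenes, and reads that fit several places were left out, so its level is uncertain. The pseudogene listed as ANXA2P2 held 30 to 89 counts per library, against 13027 to 37354 for ANXA2. It was also called higher (log2 fold change 0.86, edgeR adjusted p = 0.0180), but not without LacZ 1 (edgeR adjusted p = 0.0676), LacZ 3 (0.0537) or sh60 2 (0.139), nor by DESeq2 (0.113).

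ANXA5 (chromosome 4, 122589152 to 122618147, hg19), which binds exposed phosphatidylserine and is used to stain dying cells, rose by a small amount. It stood at 343 and 340.4 CPM in LacZ replicates 1 and 3, almost the same value, and at 466 and 439 CPM in sh60 replicates 1 and 2. The rise was 1.32-fold (log2 ratio 0.41 with an SE of 0.078; edgeR, adjusted p = 0.000706) and was not called against a minimum fold of 1.2 (glmTreat adjusted p = 0.0735). ANXA6 (chromosome 5, 150480267 to 150537443, hg19), an annexin with a duplicated core that links membranes with the cytoskeleton, measured 129 CPM (LacZ 1), 119 (LacZ 3), 119 (sh60 1) and 134 (sh60 2). The groups overlapped. Its log2 fold change was 0.03 (SE 0.089, edgeR adjusted p = 0.864), and the 95% confidence interval of the fold was 0.895 to 1.16. The sign of the ANXA6 value turned with upper-quartile scaling (-0.0032), without LacZ 3 (-0.03) and without sh60 2 (-0.06).

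Of the S100 members S100A10 and S100A4 changed most. S100A10 (chromosome 1, 151955386 to 151966714, hg19), the partner of ANXA2 and an anchor for plasminogen at the cell surface, measured 108 CPM (LacZ 1), 81.0 (LacZ 3), 195 (sh60 1) and 214 (sh60 2). Every sh60 value was above every LacZ value. The means were 94.6 ± 19.3 and 205 ± 13.8 CPM (SD, n = 2 each), 2.16 times as much (log2 ratio 1.11 with an SE of 0.11; edgeR, adjusted p = 8.01e-07). Per kilobase of exon (RPKM, CPM divided by exon length in kilobases), S100A10 stood at 0.370 and 0.321 of the ANXA2 level in LacZ replicates 1 and 3. In sh60 replicates 1 and 2 that ratio was 0.433 and 0.446. The message of S100A10 was therefore the lower of the pair in all 4 libraries, and the ratio was higher in both sh60 libraries, a difference that was not tested.

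S100A4 (chromosome 1, 153516095 to 153518282, hg19) encodes a protein that binds nonmuscle myosin and is known from migrating and metastatic cells. It had few reads, with 113 counts (LacZ 1), 85 (LacZ 3), 172 (sh60 1) and 313 (sh60 2). As levels these were 2.68 and 2.83 CPM in LacZ and 5.05 and 6.92 CPM in sh60. The LacZ libraries were alike and the sh60 libraries spread 1.37-fold. The rise was 2.19-fold (log2 ratio 1.13 with an SE of 0.19; edgeR, adjusted p = 0.000199), and 0.88 on the log2 scale without sh60 2. Of its exon length 9.57%, 54 bases, lies opposite an exon of LOC101928034, and reads were counted by strand.

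S100A11 (chromosome 1, 152004982 to 152009511, hg19), the partner of ANXA1, measured 279 CPM (LacZ 1), 249 (LacZ 3), 318 (sh60 1) and 399 (sh60 2). The sh60 libraries lay above the LacZ libraries, and they differed from each other 1.26-fold. The rise was 1.36-fold (log2 ratio 0.44 with an SE of 0.099; edgeR, adjusted p = 0.00241). The call was lost without LacZ 3 (log2 fold change 0.36, edgeR adjusted p = 0.0895) and against a minimum fold of 1.2 (glmTreat adjusted p = 0.0737). Without sh60 2 the value was 0.27 and still passed (edgeR adjusted p = 0.00480). ANXA1 moved more than its partner. The S100A11 level per kilobase was 8.37 and 12.9 times that of ANXA1 in LacZ replicates 1 and 3 and 3.39 and 4.00 times in sh60 replicates 1 and 2.

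S100A13 (chromosome 1, 153591276 to 153606568, hg19), which helps to release FGF1 and IL1A from cells by a route outside the classical secretory pathway, hardly differed between libraries. It measured 46.5 CPM in both LacZ libraries and 46.1 and 52.4 CPM in sh60 replicates 1 and 2. Its log2 fold change was 0.09 (SE 0.099, edgeR adjusted p = 0.567), with a 95% confidence interval of the fold of 0.918 to 1.23, and the sign turned without sh60 2 (-0.01). Of its exon length 8.20% lies opposite exons of CHTOP and S100A1. S100A6 (chromosome 1, 153507076 to 153508717, hg19), or calcyclin, an abundant protein of fibroblasts and epithelia, was almost silent. It had 10 counts (LacZ 1), 3 (LacZ 3), 5 (sh60 1) and 15 (sh60 2), at most 0.331 CPM. The groups overlapped. S100A6 did not pass the count filter, and in the fit with no filter, over 20937 genes, its log2 fold change was 0.48 with an SE of 0.69 (edgeR adjusted p = 0.686). No difference in S100A6 was detected at this depth, and with so few counts the estimate is wide.

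**Figure D2:**
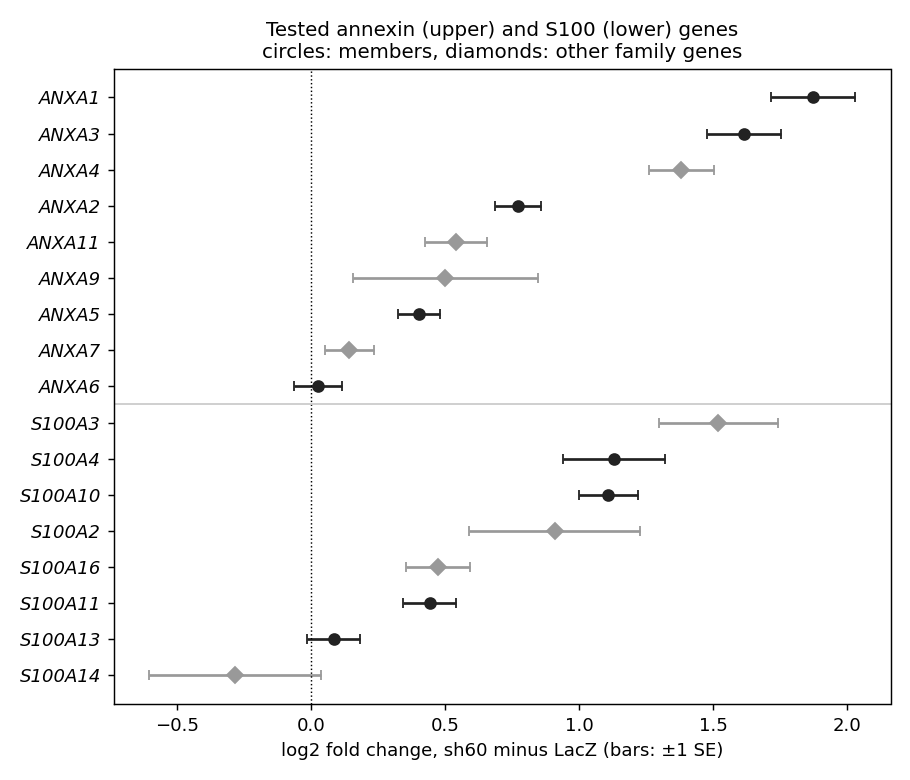
Log2 fold change of sh60 over LacZ with 1 SE on each side for every tested annexin (upper block) and S100 gene (lower block), members as dark circles and other family genes as grey diamonds. ANXA1 (1.87) and S100A3 (1.52) lead their families, and ANXA6 (0.03) and S100A13 (0.09) lie near 0 with S100A14 (-0.28) below it.

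Expressed per kilobase, the order of the members was much the same in both groups. In LacZ it ran from S100A11 (444 RPKM) over ANXA2 (258), ANXA5 (214), S100A10 (89.7), ANXA1 (44.2), ANXA6 (39.8), S100A13 (33.2), ANXA3 (15.99) and S100A4 (4.89) to S100A6 (0.247 RPKM). Only the neighbours ANXA1 and ANXA6 had overlapping library values in LacZ. In sh60 ANXA1 (163 RPKM) stood clear of ANXA6 (40.6 RPKM), and ANXA3 (49.3 RPKM) had passed both ANXA6 and S100A13 (35.2 RPKM). No neighbours overlapped in sh60. S100A11, ANXA2 and ANXA5 were at or above the 98.5th percentile of RPKM among tested genes in LacZ, so their levels were high in the control already. The share of the members' summed CPM held by ANXA1 was 5.63% and 3.71% in LacZ replicates 1 and 3 and 10.8% and 10.7% in sh60 replicates 1 and 2. ANXA2 held the largest share in every library, between 32.3% and 34.5%.

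**Figure D3:**
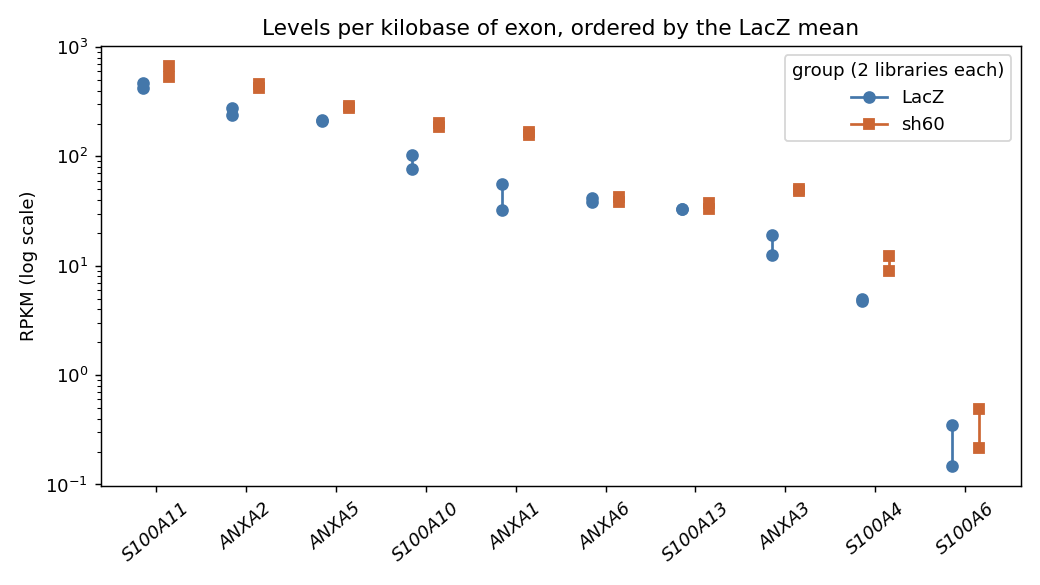
Level per kilobase of exon (RPKM, log axis) of the 10 members, ordered by the LacZ mean, with the 2 libraries of each group joined by a line. S100A11 is highest in both groups and S100A6 lowest, and ANXA3 lies below ANXA6 in LacZ and above it in sh60.

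The LacZ libraries also differed from each other in several of these genes. LacZ 1 exceeded LacZ 3 for all 5 annexin members, S100A10 and S100A11, but not for S100A4 and S100A13. It did so for 49.1% of all tested genes. The log2 difference between these libraries was 0.79 for ANXA1, 0.61 for ANXA3, 0.42 for S100A10, 0.21 for ANXA2 and 0.16 for S100A11. It was 0.01 for ANXA5 and -0.08 for S100A4, so the rises of these genes came with LacZ libraries that were alike. The sh60 libraries differed as well, with sh60 2 above sh60 1 for every tested member except ANXA5. The log2 difference, sh60 1 minus sh60 2, was -0.45 for S100A4, -0.33 for S100A11 and 0.09 for ANXA5. The share of all tested genes with sh60 2 the higher was not taken. Some fibroblast markers moved too, in both directions. Their summed level over 12 genes was 586 CPM (LacZ 1), 482 (LacZ 3), 964 (sh60 1) and 1130 (sh60 2). COL1A1 made up 141, 84.9, 554 and 684 CPM of these sums, in the same order, so the rise of the sum was largely its own. Of 11 tested markers 4 rose (COL1A1, COL1A2, LUM and POSTN), 2 fell (THY1 and PDGFRA) and 5 did not pass, with a median log2 fold change of -0.08, and COL1A1 alone went from 113 to 619 CPM. LacZ 1 exceeded LacZ 3 for all 11, and 0 of the 12 were at 0 in every library. The falls of THY1 and PDGFRA were not called without LacZ 1 (edgeR adjusted p = 0.125 and 0.281) or without LacZ 3 (0.107 and 0.243), and that of PDGFRA also not without sh60 1 (0.0655). The part of fibroblast markers in the members' rise was not tested.

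**Figure D4:**
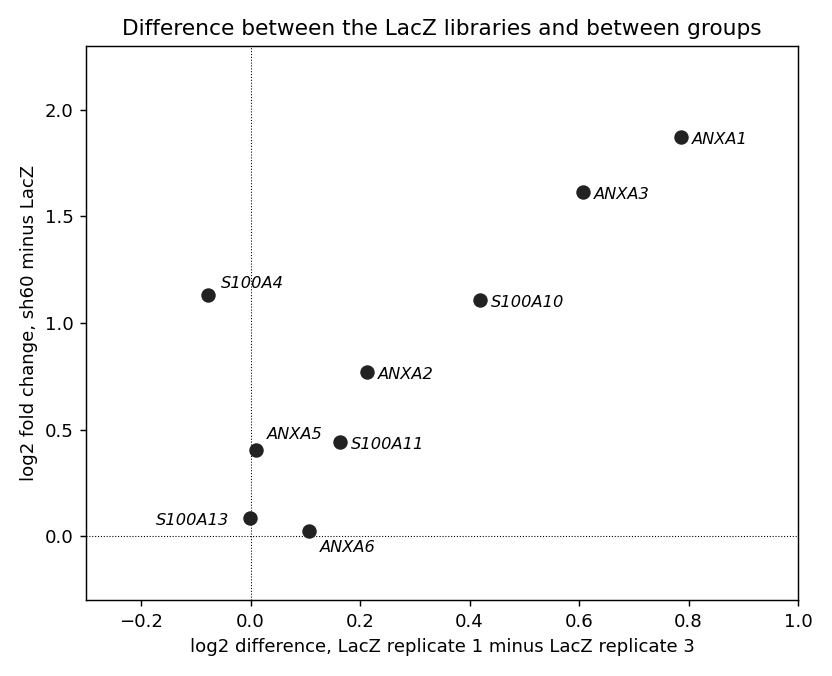
Log2 difference between LacZ replicates 1 and 3 (horizontal axis) against the log2 fold change of sh60 over LacZ (vertical axis) for the 9 tested members. ANXA1 and ANXA3 are far from 0 on both axes, and S100A4 has a fold change of 1.13 with a LacZ difference of -0.08. The LacZ libraries enter both axes, so no correlation is given.

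Other genes of the families were given from a fixed list. Beside their counts of calls, annexin and S100, stand 15.8% of all tested genes called higher and 13% called lower. Of 8 other annexins in the files 4 were tested, of which 2 rose and 0 fell. ANXA4, an annexin of epithelial secretory membranes, measured 11.5 CPM (LacZ 1), 9.61 (LacZ 3), 26.8 (sh60 1) and 28.4 (sh60 2) (log2 ratio 1.38 with an SE of 0.12; edgeR, adjusted p = 1.87e-07). ANXA11, which tethers RNA granules to lysosomes, rose 1.46-fold (edgeR adjusted p = 0.00155), but was not called without LacZ 3 (0.0960). ANXA7 (log2 fold change 0.14) and ANXA9 (0.50) did not pass. ANXA8, ANXA10 and ANXA13 had 0 counts in every library. Of all 9 tested annexins, members included, 6 rose and 0 were called lower.

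Of 16 other S100 genes 4 were tested, of which 3 rose and 0 fell. S100A3, a cysteine-rich protein of the hair cuticle, measured 1.47 CPM (LacZ 1), 1.93 (LacZ 3), 3.96 (sh60 1) and 5.59 (sh60 2) (log2 ratio 1.52 with an SE of 0.22; edgeR, adjusted p = 5.26e-05). S100A16 went from 33.5 to 46.6 CPM, a ratio of 1.39 (edgeR, adjusted p = 0.00568), but was not called without LacZ 3 (0.130). S100A2, a low gene with group means of 0.580 CPM in LacZ and 1.09 CPM in sh60, was called (edgeR adjusted p = 0.0401) but lost the call whenever any 1 library was left out (0.0845 to 0.163), and by DESeq2 (0.209). S100A14 did not pass (log2 fold change -0.28, edgeR adjusted p = 0.558). S100A5 did not pass the count filter and was named after its values were seen. It had 3 counts (LacZ 1), 0 (LacZ 3), 10 (sh60 1) and 10 (sh60 2). In the fit with no count filter 4 of the other S100 genes were called higher, as were 2726 of all 20937 genes in that fit. S100A8, S100A9 and S100A12, the S100 genes of myeloid cells, had between 0 and 2 counts per library.

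The S100 members other than S100A13 lie in a stretch of chromosome 1 (151955386 to 153604513, hg19) that runs from S100A10 to S100A1 and also holds the epidermal differentiation genes. S100A13 reaches past its end and was not counted. Of 67 listed genes in the stretch 12 were tested, 9 of them rose and 0 fell, with a median log2 fold change of 1.01. Over all tested genes 15.8% rose and 13% fell, and the members among the stretch were chosen with earlier results known. The 9 include the members S100A4, S100A10 and S100A11 and the family genes S100A2, S100A3 and S100A16. Of the 5 tested genes that are not S100 genes 3 rose, FLG, FLG-AS1 and PRR9, the last 2 named after their values were seen. FLG, filaggrin, a skin barrier protein whose first part is an S100-type domain, measured 0.760 CPM (LacZ 1), 0.299 (LacZ 3), 5.17 (sh60 1) and 5.41 (sh60 2) (log2 ratio 3.23 with an SE of 0.27; edgeR, adjusted p = 1.31e-07). Of the 67 genes 35 had 0 counts in every library. With no count filter 10 genes of the stretch were called higher. LCE1E, tested but not called, passed the count filter only through sh60 (3 and 5 counts in LacZ, 9 and 15 in sh60). Its log2 fold change of 1.41 entered the median, and it was named after its values were seen. Without LacZ 3 the number of genes called higher in the stretch was 5. That fit lost S100A11 (given above), S100A16, S100A2 (0.149) and PRR9 (0.0783), and PRR9 was also lost without sh60 2 (0.0630) and by DESeq2 (0.0725).

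Partners and receptors moved in part. Of 31 listed genes 25 were tested, 8 rose, 2 fell and 15 did not pass, with a median log2 fold change of 0.06. Over all tested genes 15.8% rose and 13% fell. AHNAK, a giant scaffold that binds the ANXA2 and S100A10 complex, measured 163 CPM (LacZ 1), 102 (LacZ 3), 419 (sh60 1) and 395 (sh60 2) (log2 ratio 1.62 with an SE of 0.14; edgeR, adjusted p = 1.67e-07). Its relative AHNAK2 rose 3.12-fold to 18.1 CPM. IL1A, a cytokine released with S100A13, had 5.08 times its LacZ level in sh60 (1.07 against 5.51 CPM; edgeR, adjusted p = 2.48e-07). CTSB, a lysosomal protease that binds S100A10, rose 1.67-fold, and EZR, which links membrane to actin, went from 271 to 408 CPM. The 2 genes that fell were PPP5C and AGER, the receptor RAGE for S100 ligands, named after their values were seen. The listed entry of AGER spans chromosome 6 from 3409765 to 32152099 (hg19), far more than the length of 1 gene, so its level is uncertain. PPP5C was not called without LacZ 1 (edgeR adjusted p = 0.127) or LacZ 3 (0.0785), nor AGER without LacZ 3 (0.208) or sh60 2 (0.219), or by DESeq2 (0.108). The formyl peptide receptor genes FPR1, FPR2 and FPR3, which encode receptors of ANXA1, had between 0 and 5 counts per library.

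Membrane repair and phosphatidylserine exposure genes moved mostly upward where they passed. Of 28 listed symbols 27 were in the files and 25 were tested. Of these 11 rose, 2 fell and 12 did not pass, with a median log2 fold change of 0.24. Over all tested genes 15.8% rose and 13% fell. MYOF, myoferlin, a calcium-dependent membrane fusion protein, measured 24.3 CPM (LacZ 1), 13.5 (LacZ 3), 71.4 (sh60 1) and 72.3 (sh60 2) (log2 ratio 1.91 with an SE of 0.17; edgeR, adjusted p = 1.87e-07). CAV2, a caveolin, rose 3.65-fold to 25.9 CPM, and EHD2, which stabilises caveolae, 3.19-fold to 19.4 CPM. EHD1, a membrane remodelling ATPase, rose 2.25-fold to 103 CPM. CAPN2, the large subunit of a calpain, rose 1.98-fold from 199.5 to 395 CPM. The 2 that fell were SYT7 (log2 fold change -1.26) and DYSF, dysferlin (-0.48), named after their values were seen. DYSF was not called without LacZ 3 (edgeR adjusted p = 0.0573). VPS4B and ANO6 were also among the risers, and were named after their values were seen. Against a minimum fold of 1.2 neither was called (glmTreat adjusted p = 0.0914 and 0.297). Nor was either called without LacZ 1 (log2 fold changes 0.45 and 0.39) or without LacZ 3 (0.41 and 0.29). ATP8A2 was called higher only without LacZ 3 (log2 fold change 1.04).

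**Figure D5:**
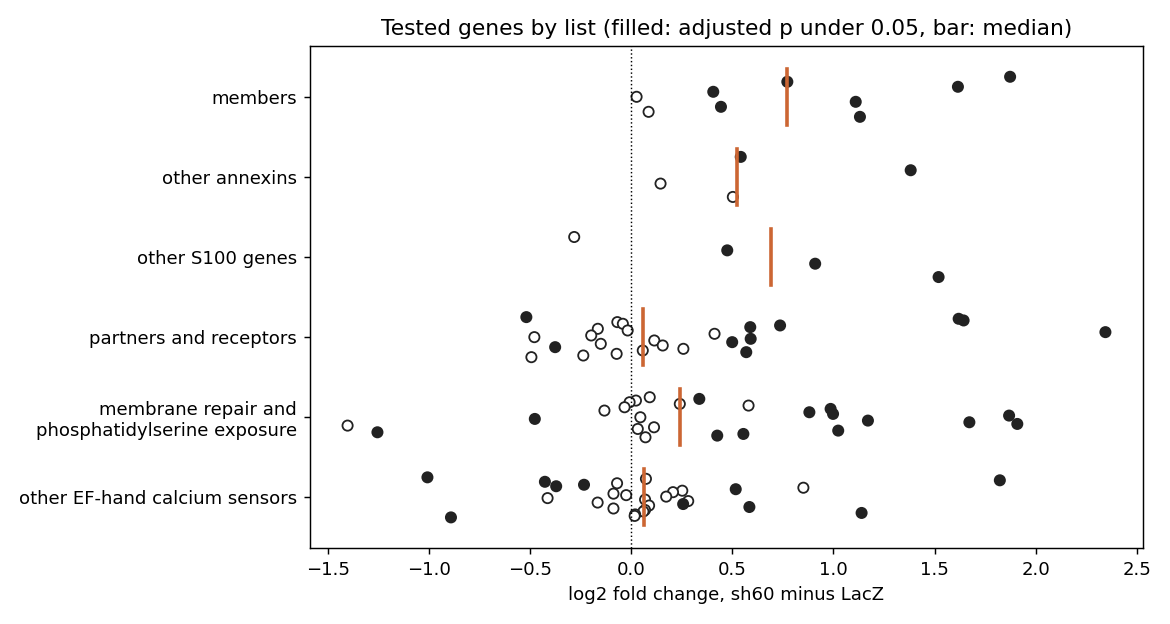
Log2 fold change of sh60 over LacZ for every tested gene of the members' list and of 5 other fixed lists. Filled points passed an adjusted p of 0.05, and the vertical bar is the median, which is 0.77 for the members, 0.24 for membrane repair and 0.06 both for partners and for other EF-hand sensors.

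Of 32 other EF-hand calcium sensors listed 28 were tested, 5 rose, 5 fell and 18 did not pass. The share that rose, 17.9%, and the equal share that fell were near those over all tested genes (15.8% and 13%), so nothing particular to these sensors is read from the count. They had a median log2 fold change of 0.06. CALB2, calretinin, a calcium buffer of neurons, rose 3.54-fold from 1.95 to 7.17 CPM, and RCN3, a protein of the secretory pathway, went from 1.48 to 3.28 CPM. CALU, calumenin, of the endoplasmic reticulum, rose 1.43-fold to 442 CPM. VSNL1, a neuronal sensor, fell by 0.89 on the log2 scale, from 38.5 to 20.7 CPM. The edgeR adjusted p of these 4 genes lay between 1.06e-05 and 0.000538. Others that passed were NUCB2 and NCS1, higher, and CABP1, CALML4 and CALM3, lower, named after their values were seen. NCS1, CALML4 and CALM3 lost their calls without LacZ 1 and without LacZ 3, and NCS1 and CALML4 also without sh60 2 (edgeR adjusted p from 0.0542 to 0.540). Without LacZ 1, and likewise without LacZ 3, 3 genes of the list fell.

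Some genes outside the families followed the members' typical profile closely. The profile is the median over the 10 members of log2 CPM centred on each gene. It was -0.24 and -0.50 in LacZ replicates 1 and 3 and 0.28 and 0.53 in sh60 replicates 1 and 2. The almost silent S100A6 was included, with 0.32 and -0.78 in LacZ replicates 1 and 3 and -0.31 and 0.77 in sh60 replicates 1 and 2. Its counting noise thus entered the profile, including the gap between the sh60 libraries, and the choice of nearest genes. Among 11248 other genes with a mean of 5 CPM or more, the closest by root mean square difference over the 4 libraries were PLXNB2 (0.022), LAMB2 (0.024), LCTL (0.028), BOK (0.030) and TUFT1 (0.031). ANXA2 was the member nearest to the profile (0.060), and ANXA1 the farthest (0.61). These distances describe 4 libraries in 2 groups and are given without a test.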

How the data were processed

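The authors deposited whole-number read counts per gene for each of the 4 libraries, not normalized. The submitters' processing notes name FastQC, STAR 2.7.6a and the build hg19 (GRCh37). Exon reads were counted per gene symbol with featureCounts of Subread 2.0.0 at strand setting 2, per the file headers, which show no option for multi-mapped reads or for overlapping genes.

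Groups were compared by the quasi-likelihood test of edgeR 4.0.16 in R 4.3.3, with TMM scaling, group as the only term, all 4 libraries, and filterByExpr, which kept 16040 of 26364 genes. Benjamini-Hochberg adjustment ran over these genes (threshold 0.05). The biological coefficient of variation came to 7.33%, with 2 residual degrees of freedom. CPM uses TMM-scaled library sizes, and RPKM divides it by the exon length in the files. Log2 differences between libraries add 0.5 counts. No library was an exact copy of another. The chi-square between the replicates of a group, divided by its degrees of freedom, was 5.89 for LacZ and 15.8 for sh60. Such values show spread beyond counting noise, but cannot tell separate cultures from technical repeats. The script was tested on simulated data. Library totals were 30338285 to 44788461 counts, and intervals of folds come from the fit.

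The members and lists were chosen with earlier results of these data known. All members and all tested annexin and S100 genes were to be named. Of each other list up to 5 genes past the threshold with the smallest p were named, and the 5 genes nearest to the members' profile. One gene that this rule names is not reported here. Alternatives were other scalings, DESeq2 1.42.0, limma-voom (limma 3.58.1), other filters, glmTreat with a minimum fold of 1.2, and fits without each of the 4 libraries. Removal of GC and length trends (GENCODE transcripts matched by symbol for 94.2% of tested genes) was added after seeing the data. Promoter windows are RefSeq's on GRCh38.p14 and gene coordinates are the files' own on hg19.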

Additional observations from a re-analysis of the deposited data

How the results depend on the processing

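Over 13 alternatives ANXA1, ANXA2, ANXA3, S100A4 and S100A10 kept their direction and their call. ANXA5 and S100A11 were not called by glmTreat against a fold of 1.2 (adjusted p = 0.0735 and 0.0737), and S100A11 not without LacZ replicate 3 (edgeR adjusted p = 0.0895), where the cause was not tested. ANXA6 and S100A13 were called in none. The ANXA6 value turned to -0.0032 with upper-quartile scaling. With 1 library left out it ran from -0.0615 to 0.107, and that of S100A13 from -0.0103 to 0.174.

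The number of members called higher was 6 to 7 with 1 library left out. Over all genes 2540 were higher and 2084 lower, so 54.9% of calls were higher. With GC and length trends removed 2905 were higher and 3693 lower (44.0% higher). glmTreat called 1401 and 882. With 1 library left out the higher calls ran from 1331 (without LacZ replicate 3) to 2789 and the lower calls from 956 (without LacZ replicate 3; 1166 without LacZ replicate 1) to 2697. With 1 library left out, other annexins and other S100 genes higher each ran from 1 (without LacZ replicate 3) to 2, partners lower from 0 (without LacZ replicate 3) to 4 (without sh60 replicate 2), membrane repair genes lower from 1 to 3, other EF-hand sensors lower from 3 to 5, and the chromosome 1 stretch higher from 5 to 8. glmTreat gave 1 other S100 gene higher, 3 EF-hand sensors lower and 0 partners lower. Partners lower were 5 with upper-quartile scaling, 1 by DESeq2 and 4 with GC and length trends removed. Fits without a library assume that a lone sample varies like the other group.

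No paired analysis was done, because the library titles name no pairs. The replicate numbers come from those titles, which do not say that equal numbers belong together. At these depths no difference was detected in S100A6, which had 3 to 15 counts per library. It entered the fit with no count filter and those without LacZ replicate 1, LacZ replicate 3 or sh60 replicate 1, and was called in none (edgeR adjusted p from 0.387 to 0.973).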
